A study of Mus musculus with 4 samples.

Results

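The BCL2 family sets the threshold at which a cell opens its mitochondria and dies. The account below covers 9 of its genes, taken by name from the 21887 protein-coding genes of the mouse table: Bcl2, Bcl2l1, Mcl1, Bcl2l11, Bak1, Bid, Bad, Bmf and Bok. Every summit inside these genes or within 20 kb of either end was listed, a summit being the base of highest pile-up in a peak called by the authors. The thymus came from mice carrying the AD allele of p53 on both chromosomes (p53 AD/AD, a germline alteration whose protein is dimeric), killed at 4 weeks of age, and the input and both antibodies share that genotype. Chromatin immunoprecipitation with sequencing gave 2 p53 libraries and 1 PPAR-alpha library with summit lists, beside 1 input library that is not analysed here. Reads were 50 nt long for p53 and 75 nt for PPAR-alpha, so an effect of read length and one of the antibody cannot be told apart. The labels do not say how many mice were used or whether the p53 libraries came from separate animals. No library of another p53 genotype was analysed here, so the comparison is between antibodies and between p53 libraries, not between forms of p53.

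BCL2, BCL-XL (from Bcl2l1) and MCL1 are the survival members: they hold the pore-forming proteins and their activators in check at the outer mitochondrial membrane. BAK (from Bak1) and BOK are pore formers, and BIM (from Bcl2l11), BID, BAD and BMF are BH3-only proteins that bind the survival members or trigger the pore formers. In the thymus, MCL1 and BCL2 keep early and mature thymocytes alive, BCL-XL supports cells that carry both CD4 and CD8, and BIM is needed to delete self-reactive cells. The tumour suppressor p53 is known to start this pathway through some of its BH3-only genes, and PPAR-alpha is a nuclear receptor best known for switching on fatty acid oxidation.

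Of the 9 genes, 7 had at least 1 summit, as 36.0% of all protein-coding genes did, and 2, Bmf and Bok, had none. In p53 replicate 1 a summit lay at 7 genes, in p53 replicate 2 at 5 and in PPAR-alpha at 4. The shares of all protein-coding genes that met the same rule in each list were 20.8%, 25.7% and 20.4%. Bcl2l1, Mcl1, Bcl2l11, Bid and Bad had a summit in both p53 lists (14.4% of all genes did so), and Mcl1, Bcl2l11 and Bid had one in all 3 lists (9.88% of all genes). The shares of members, 77.8%, 55.6% and 44.4%, lay above these backgrounds, but the members were chosen with results of these lists known and no test was run. At a score of 5 or more the p53 replicate 2 share was near its background, with 1 of 9 members (11.1%) beside 9.12% of all genes. In p53 replicate 1 and in PPAR-alpha 2 of 9 members (22.2%) each remained, beside 7.42% and 11.0%. Both p53 lists together had 0 of 9 beside 3.63%, a share too low for 9 genes to show an absence. The background also holds genes that thymus does not use, whose part in the difference was not tested. The 25 summits at members formed 21 distinct sites when summits within 100 bp counted as 1 site, and 18 of the 25 lay inside a member. The share of all summits that lie inside a gene was not counted.

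**Figure D1:**
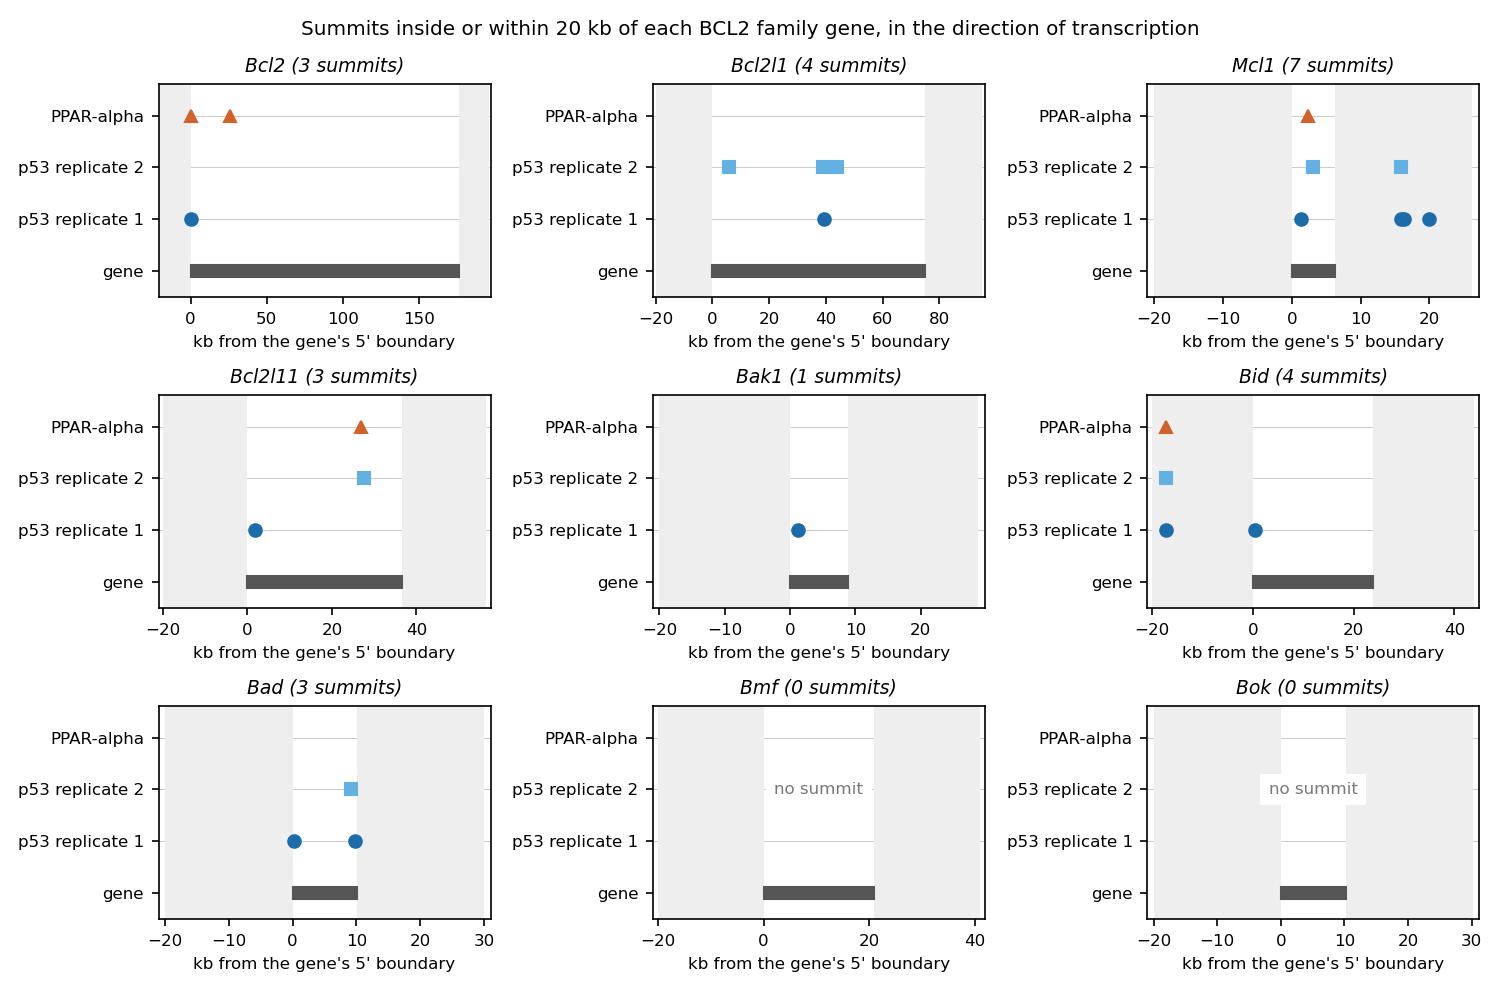
Positions of all summits inside or within 20 kb of each gene, one panel a gene, in kb from the 5′ boundary and in the direction of transcription; the dark bar is the gene, grey areas are its 20 kb surroundings, and each row of symbols is a list. Mcl1 held 7 summits, Bid had a column of all 3 lists upstream, and Bmf and Bok held none.

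Lists can share a gene without sharing a position in its window, so positions were compared as well. Only 3 of the 21 sites appeared in more than 1 list: 1 upstream of Bid in all 3, 1 beside Mcl1 in both p53 lists, and 1 in the first part of Bcl2 in p53 replicate 1 and PPAR-alpha. The other 18 sites were each seen in a single list. How often summits of the whole lists are shared at 100 bp was not counted, so no trait of these genes is read from this. Bcl2l1, Bcl2l11 and Bad therefore carried summits of both p53 libraries without any p53 position in common at 100 bp.

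Scores at the members were typical of the p53 lists. The score is the authors' own, read here as a −log10 p or q. It is used to rank summits within a list and to compare genes by their highest scores. The same cutoffs of 5 and 10 are also applied to all 3 lists, although a cutoff of 5 does not remove equal shares of them. The member summits had a median of 3.99 in p53 replicate 1 (n = 12, 2.18 to 5.45), 3.97 in replicate 2 (n = 8, 1.83 to 7.58) and 4.13 in PPAR-alpha (n = 5, 2.57 to 10.7). Over the whole lists of 3608, 4767 and 4070 summits the medians were 3.99, 3.62 and 4.70. At or above the median of their list lay 7 of 12, 5 of 8 and 2 of 5 member summits. Under a score of 5 lay 10, 6 and 3 of the member summits, beside 71.3%, 73.7% and 51.9% of the whole lists. Scores came in few steps, with 75, 76 and 116 distinct values in the lists, and the commonest p53 replicate 1 value, 3.34, was shared by 633 summits, among them 1 at Bcl2 and 1 at Bid. A score over whole thymus cannot tell stronger binding per cell from binding in more cells.

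**Figure D2:**
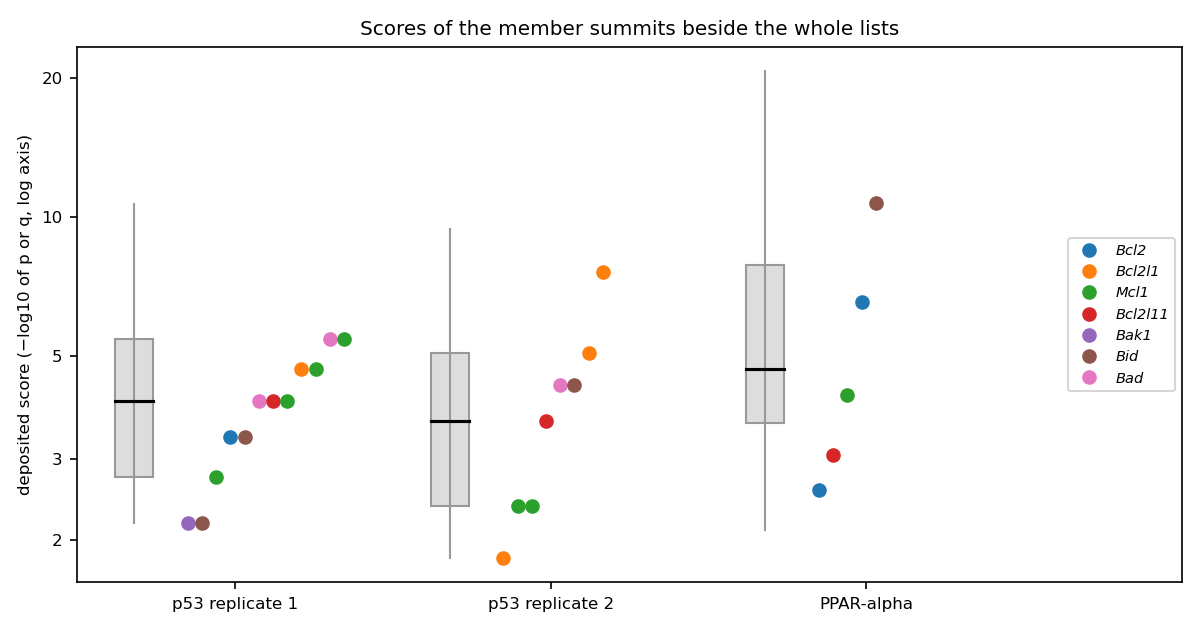
Deposited scores (−log10 of p or q, log axis) of the 25 member summits, coloured by gene and ordered by score within each list; the grey box spans the 25th to 75th percentile of the whole list, the black bar its median and the line its 5th to 95th percentile. Most member summits sit inside or below the boxes, and the highest are the 10.7 upstream of Bid in PPAR-alpha and the 7.58 in Bcl2l1 in p53 replicate 2.

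How close did the summits come to the starts of these genes? Within 1 kb of an annotated start, p53 replicate 1 had a summit at 5 members (Bcl2, Mcl1, Bcl2l11, Bid and Bad), p53 replicate 2 at 1 (Bcl2l1) and PPAR-alpha at 2 (Bcl2 and Mcl1). Of the 17492 protein-coding genes with an annotated start, 10.2%, 13.0% and 9.59% had one. At least 1 list had one at 6 members (20.6% of the genes with starts). No member had a start summit in both p53 lists or in all 3, as 5.72% and 3.21% of those genes did. The 4 summits at Bcl2, Bcl2l11, Bid and Bad in p53 replicate 1 lay between 264 and 321 bp downstream of the gene's nearest start, and that at Mcl1 lay 384 bp upstream. From their other annotated starts, the Bcl2l11 summit lay 1806 bp downstream and the Bad summit 410 bp upstream. The share of all summits at such distances from a start was not counted, so no trait of these genes is read from this. Just outside the 1 kb limit were 1173 bp at Bak1 in p53 replicate 1 and 1301 bp at Mcl1 in p53 replicate 2.

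**Figure D3:**
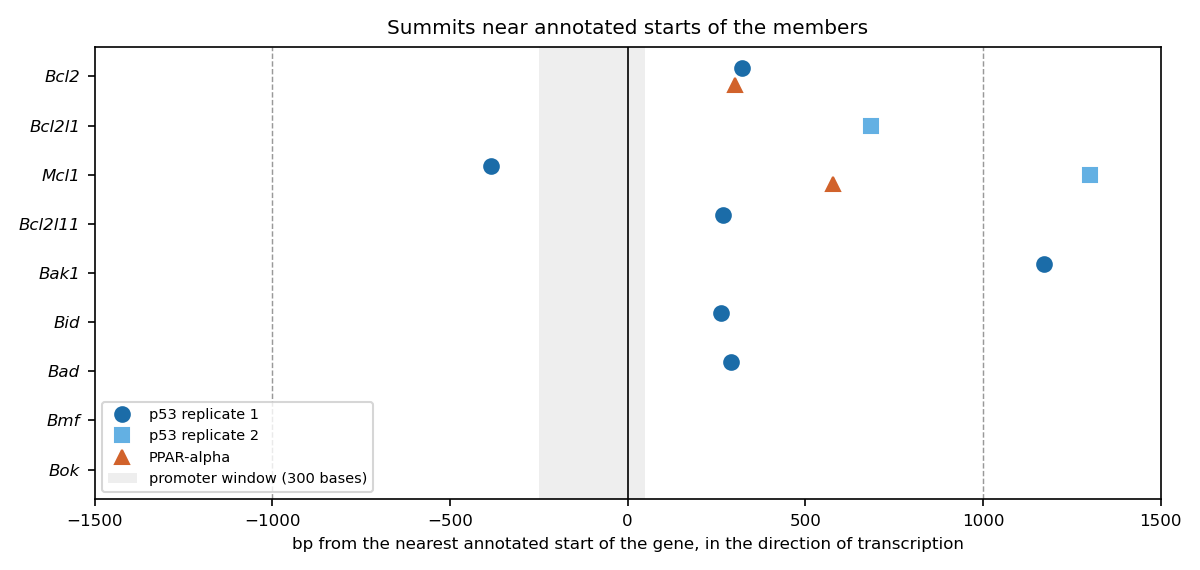
Distance in bp of member summits from the nearest annotated start of the same gene, drawn to 1500 bp on either side, in the direction of transcription; dashed lines mark 1 kb and the grey band the 300-base promoter window of RefSeq. In p53 replicate 1 the summits of Bcl2, Bcl2l11, Bid and Bad sit side by side downstream of the gene's nearest start, with no p53 replicate 2 summit beside them.

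The promoter windows next to these start summits are shown for the 6 genes with one, and 1 window of Bmf for contrast, since Bmf had no summit but the only p53 match among the members. They are RefSeq sequences of GRCm38.p6, 250 bases before to 50 after a start, 5′ to 3′ in the direction of transcription. Capitals mark matches, on either strand, to GGGCGG (bound by Sp and KLF factors), CCGGAAG (ETS factors), CCAAT (NF-Y), AGGTCA (the hexamer of nuclear receptors such as PPARs) or the 10-base p53 decamer.
Bcl2 (chr1:106714241-106714540, minus strand): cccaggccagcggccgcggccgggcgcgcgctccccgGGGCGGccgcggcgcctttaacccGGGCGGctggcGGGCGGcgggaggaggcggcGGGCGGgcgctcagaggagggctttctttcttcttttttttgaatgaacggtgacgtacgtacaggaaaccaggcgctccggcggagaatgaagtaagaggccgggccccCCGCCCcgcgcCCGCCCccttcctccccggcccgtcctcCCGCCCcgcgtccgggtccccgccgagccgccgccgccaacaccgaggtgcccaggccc
Bcl2l1 (chr2:152828440-152828739, minus strand): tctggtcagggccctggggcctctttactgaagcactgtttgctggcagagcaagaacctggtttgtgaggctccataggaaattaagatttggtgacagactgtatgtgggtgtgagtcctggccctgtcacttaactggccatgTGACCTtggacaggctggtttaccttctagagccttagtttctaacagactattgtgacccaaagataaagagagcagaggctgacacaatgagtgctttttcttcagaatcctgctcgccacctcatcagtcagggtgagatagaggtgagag
Mcl1 (chr3:95658471-95658770, plus strand): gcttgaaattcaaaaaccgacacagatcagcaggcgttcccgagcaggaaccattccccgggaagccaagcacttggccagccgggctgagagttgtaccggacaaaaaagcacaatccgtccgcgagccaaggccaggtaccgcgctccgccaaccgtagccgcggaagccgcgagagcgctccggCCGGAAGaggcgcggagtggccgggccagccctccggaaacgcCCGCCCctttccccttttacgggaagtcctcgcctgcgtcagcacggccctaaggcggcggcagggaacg
Bcl2l11 (chr2:128127325-128127624, plus strand): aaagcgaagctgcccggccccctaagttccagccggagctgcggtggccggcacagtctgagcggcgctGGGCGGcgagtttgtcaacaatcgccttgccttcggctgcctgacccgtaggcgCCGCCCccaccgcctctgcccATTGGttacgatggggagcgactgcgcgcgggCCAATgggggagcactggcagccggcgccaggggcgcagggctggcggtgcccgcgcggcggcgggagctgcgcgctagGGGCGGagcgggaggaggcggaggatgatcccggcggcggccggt
Bid (chr6:120916775-120917074, minus strand): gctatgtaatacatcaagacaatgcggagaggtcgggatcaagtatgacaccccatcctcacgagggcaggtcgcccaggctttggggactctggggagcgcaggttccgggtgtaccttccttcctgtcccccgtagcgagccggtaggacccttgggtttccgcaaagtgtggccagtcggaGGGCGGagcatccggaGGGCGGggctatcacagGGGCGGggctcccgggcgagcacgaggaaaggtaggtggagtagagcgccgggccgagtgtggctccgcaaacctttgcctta
Bad (chr19:6941611-6941910, plus strand): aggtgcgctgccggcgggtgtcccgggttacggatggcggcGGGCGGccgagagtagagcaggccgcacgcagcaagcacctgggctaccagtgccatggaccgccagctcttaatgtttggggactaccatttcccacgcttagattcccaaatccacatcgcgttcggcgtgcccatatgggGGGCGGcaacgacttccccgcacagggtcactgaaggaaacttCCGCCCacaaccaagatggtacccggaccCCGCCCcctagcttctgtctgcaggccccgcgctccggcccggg
Bmf (chr2:118544538-118544837, minus strand): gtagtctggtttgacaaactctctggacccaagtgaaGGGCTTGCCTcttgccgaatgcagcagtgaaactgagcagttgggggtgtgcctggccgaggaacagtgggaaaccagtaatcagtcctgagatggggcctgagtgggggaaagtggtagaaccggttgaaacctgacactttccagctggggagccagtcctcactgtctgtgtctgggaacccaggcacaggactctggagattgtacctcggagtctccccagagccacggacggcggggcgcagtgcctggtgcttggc

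None of the 15 promoter windows of the 9 members contained a summit of any list, so the printed letters lie beside the summits, not under them. The share of all windows that contain a summit was not counted, so this absence is not read as particular to the members. GGGCGG stood in 8 of the 15 windows, with 7 copies at Bcl2, 4 at the first start of Bad and 3 each at Bid and the printed start of Bcl2l11. It stood in 35.7% of all 32851 windows of the table. Bid had all 3 copies on the sense strand within 66 bp before the start. The p53 decamer occurred in 1 of the 15, the printed Bmf window, 213 bp before the start, and in 8.36% of all windows. AGGTCA occurred in 2, at Bcl2l1, 104 bp before the start printed, and at another start of Bmf, and in 16.3% of all windows. CCGGAAG stood in 3, at Mcl1, 63 bp before the start, and at single other starts of Bcl2l1 and Bcl2l11 (8.86% of all windows), and CCAAT in 5, at Bcl2l11, Bad and Bmf (37.4%). The E box CACGTG was in none of the 15 windows and in 7.15% of all. The 15 windows had a median of 58.7% G and C (49.3 to 76.0%) beside 52.7% over all windows.

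Among the survival genes, Bcl2 on chromosome 1 (106538176 to 106714290, minus strand, 176 kb) was marked at its start by both antibodies. The p53 replicate 1 summit at 106713969 scored 3.34 and lay 321 bp downstream of the start, and the PPAR-alpha summit at 106713988 scored 6.55 and lay 302 bp downstream. These summits were 19 bp apart, while the nearest p53 replicate 2 summit was 45900 bp away from the first. A second PPAR-alpha summit at 106688362 lay 25928 bp into the gene with a score of 2.57, which only 5.77% of the PPAR-alpha summits fell below. The site at the start of Bcl2 thus rests on 1 of the 2 p53 libraries.

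Bcl2l1, the gene of BCL-XL, on chromosome 2 (152758732 to 152833803, minus strand), carried p53 summits alone. Replicate 1 had 1 summit inside the gene, at 152794510 with a score of 4.70. Replicate 2 had 3, at 152789899 (1.83), 152794870 (5.08) and 152827805 (7.58). The summits at 152794510 in replicate 1 and 152794870 in replicate 2 were 360 bp apart, so they counted as 1 site at 500 bp and not at 100 bp. The summit at 152827805 lay 684 bp downstream of an annotated start and outranked 91.1% of its list, the highest rank within a list of any member summit. The nearest PPAR-alpha summit to it was 413394 bp away.

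Mcl1, whose short-lived protein thymocytes need at most stages, held the most summits, 7 around a gene of 6236 bp on chromosome 3 (95656944 to 95663179, plus strand). Inside the gene each list had 1 summit, all at different positions. The p53 replicate 1 summit at 95658337 scored 3.99 and lay 384 bp before the annotated start, the PPAR-alpha summit at 95659298 scored 4.13 and lay 577 bp after it, and the p53 replicate 2 summit at 95660022 scored 2.37 and lay 1301 bp after it. Neighbouring summits were 961 and 724 bp apart. The position both p53 libraries shared lay beyond the gene, 9596 bp and 9612 bp past its end at 95672775 (replicate 1, score 4.70) and 95672791 (replicate 2, score 2.37), 16 bp apart. It sat inside the long noncoding RNA gene Gm52627, 603 and 619 bp from its start, and the nearest PPAR-alpha summit was 13477 bp from the first of them. Of the other 2 p53 replicate 1 summits there, that at 95673293 (2.74) was also in Gm52627 and that at 95676861 (5.45) in Adamtsl4. For these 2 and for the shared position, the nearest protein-coding gene is Adamtsl4, not Mcl1.

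Among the BH3-only genes, Bcl2l11 on chromosome 2 (128126038 to 128162547, plus strand) had 1 summit a list. The p53 replicate 1 summit at 128127844 scored 3.99 and lay 269 bp downstream of the second of the gene's annotated starts. The p53 replicate 2 summit at 128153617 (3.62) and the PPAR-alpha summit at 128152969 (3.06) lay deep in the gene, 26042 and 25394 bp downstream of that start and 648 bp from each other. The p53 summits of this gene were thus 25773 bp apart, and its summits in all 3 lists do not mark a common position.

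Bid, which links death receptors to mitochondria, had the only site around the members that all 3 lists shared. The gene spans 120893119 to 120917062 on the minus strand of chromosome 6, and the site lay 17253 bp upstream of it, at 120934315 in p53 replicate 1 (3.34), 120934319 in p53 replicate 2 (4.33) and 120934370 in PPAR-alpha (10.7). The p53 summits were 4 bp apart and all 3 fell within 55 bp. The PPAR-alpha score, the highest at any member, exceeded 84.0% of its list, and the p53 scores exceeded 27.1% and 62.6% of theirs. This site lies inside the neighbouring gene Mical3, so Bid is not the nearest gene to it, although the nearest annotated start in the promoter table, 17491 bp away, is that of Bid. At Bid itself there was 1 summit, in p53 replicate 1 at 120916560, 264 bp downstream of the start, and its score of 2.18 exceeded 3.10% of the list.

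Bad, which binds BCL2 and BCL-XL when survival signalling falls, had p53 summits at both ends of the gene and none in PPAR-alpha. It spans 6941861 to 6951905 on the plus strand of chromosome 19. The p53 replicate 1 summit at 6942152 (3.99) lay 291 bp downstream of the first start, where Bad and Gpr137 overlap. Near the other end lay 6951655 in replicate 1 (5.45) and 6951061 in replicate 2 (4.33), 594 bp apart. Bmf, a BH3-only gene on chromosome 2 (118528757 to 118549686, minus strand), had no summit in its window. The nearest were a p53 replicate 2 summit at 118499825 (2.37) and a PPAR-alpha summit at 118499810 (9.995), 28932 and 28947 bp beyond its end and 15 bp apart, in the noncoding gene Gm32684.

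The pore formers had the fewest summits. Bak1 on chromosome 17 (27019812 to 27028627, minus strand), which overlaps Ggnbp1, had a single summit, in p53 replicate 1 at 27027454. It lay 1173 bp downstream of the start with a score of 2.18, which exceeded 3.10% of the list. Bok on chromosome 1 (93685575 to 93695770, plus strand) had none, and the nearest summits to its start were 50060 bp away in p53 replicate 2, 69652 bp in PPAR-alpha and 140145 bp in p53 replicate 1. By role, a p53 summit in both lists was found at 2 of 3 survival genes, 3 of 4 BH3-only genes and 0 of 2 pore formers, beside 14.4% of all protein-coding genes. With so few genes a role, these counts show no difference between roles.

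The counts changed with the distance allowed, except in p53 replicate 1. Inside or within 1 kb, 7, 4 and 3 members had a summit in the 3 lists, beside 12.6%, 15.8% and 12.5% of all protein-coding genes. Within 50 kb the counts were 7, 8 and 7, beside 30.2%, 36.4% and 30.2%. The members gained between 20 and 50 kb were Bcl2, Bak1 and Bmf in p53 replicate 2 and Bak1, Bad and Bmf in PPAR-alpha, and Bok had none even there.

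**Figure D4:**
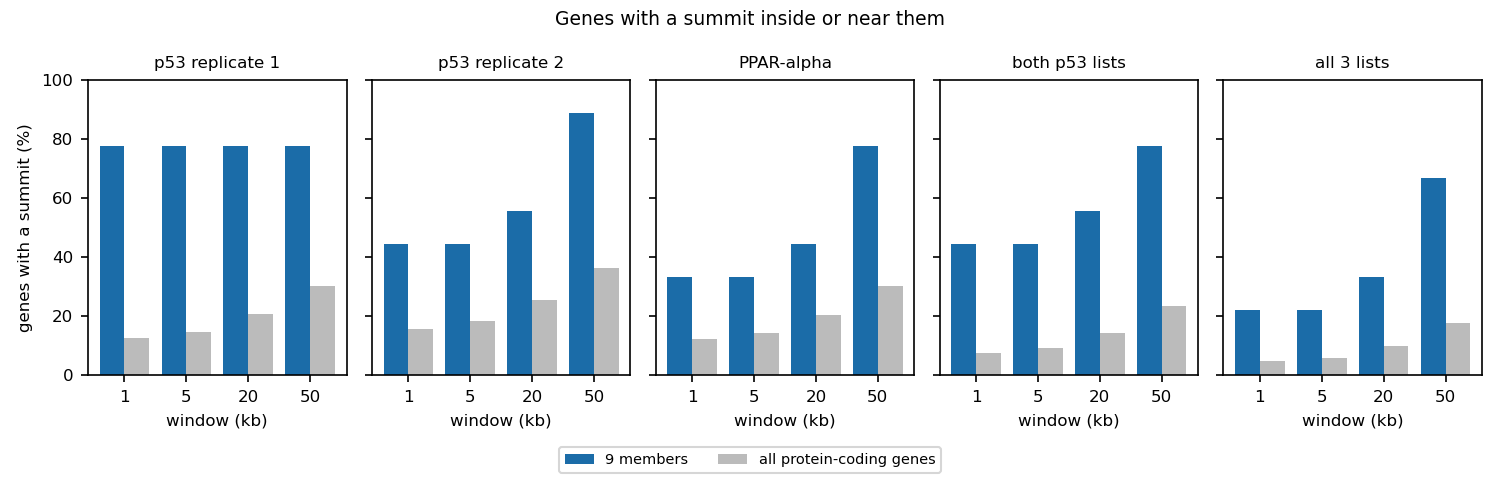
Percent of the 9 members (blue) and of all protein-coding genes (grey) with a summit inside or within 1, 5, 20 and 50 kb, for each list, both p53 lists and all 3 lists. The p53 replicate 1 bar of the members stays at 77.8% from 1 to 50 kb, while the other member bars are higher at 50 kb than at 1 kb.

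Gene length moved the background little. Among the 4945 genes of 50 kb or longer, to which Bcl2 and Bcl2l1 belong, 22.0%, 27.0% and 22.6% had a summit in the 3 lists, against 20.4%, 25.3% and 19.7% of the 16942 shorter genes. Of the 7 shorter members, 5, 4 and 3 had one. Of the long members, Bcl2 had no p53 replicate 2 summit and Bcl2l1 had 3. Of the shorter ones, Mcl1, the shortest, had summits in all lists, while Bmf and Bok had none in any. A part of gene length in the member counts was not tested.

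The wider death pathway was read from 40 other genes within 5 kb, where 14.6%, 18.3% and 14.3% of all protein-coding genes had a summit in the 3 lists, in the same order. Of the 40, 13, 12 and 14 had one; 7 had one in both p53 lists and 5 in all 3, beside 9.27% and 6.05% of all genes. Among 16 further BCL2 family genes the counts were 2, 2 and 4, and only Bcl2l12 had summits in both p53 lists, with the highest scores 7.07 and 2.97. Those summits lay nearest the neighbour Irf3, and its PPAR-alpha summit (47.7) lay nearest Prmt1. The pore former Bax had 1 summit, in p53 replicate 2 (5.08), and Bbc3, the gene of the BH3-only protein PUMA, had 1 in p53 replicate 1 (3.99) and 1 in PPAR-alpha (2.57).

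The 19 caspase genes and their mitochondrial partners and inhibitors had summits in 10, 8 and 9 cases. Birc2, an inhibitor of apoptosis gene, had scores of 7.93, 7.58 and 7.88 in the 3 lists. Birc5, the gene of survivin, had 5.45, 3.62 and 5.30, and Vdac1, a channel of the outer mitochondrial membrane, had 4.70, 3.62 and 3.58. Vdac3 (6.24 and 2.97) and the mitochondrial protease gene Htra2 (2.18 and 2.97) had p53 summits in both libraries and none in PPAR-alpha; those of Htra2 lay nearest its neighbour Aup1. Of 5 genes for the turnover of MCL1 and BIM, Btrc, which encodes a ubiquitin ligase subunit, had low summits in all 3 lists (2.18, 1.83 and 3.58).

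As a check of the tissue, 6, 7 and 6 of 8 thymocyte genes had a summit within 5 kb, among them Cd3e, Cd4, Rag1 and Lck in all 3 lists. Of all protein-coding genes, 14.6%, 18.3% and 14.3% had one. None of 4 B cell genes and none of 4 thymic epithelium genes did in any list. Of 4 myeloid genes, Cd68 did in both p53 lists and Itgam in PPAR-alpha. Of 4 adipocyte genes, 1 did in p53 replicate 1 and in PPAR-alpha. With 4 genes a cell type, such low counts cannot be told from the shares of all genes. Summits give no expression level. By the highest scores in the 3 lists, Mcl1 was most like Adamtsl4, Impdh1 and Notch2 among the 2152 genes with a summit in each list that are neither members nor among the 40 pathway genes described above, with summed log2 differences of 0, 0.15 and 0.18. Adamtsl4 shares the summits of Mcl1. Bcl2l11 was most like Cdc5l (0), Add3 (0.17) and Ddx19b (0.17), and Bid most like Coro7 (0.09), Dnaja3 (0.09) and Dgkd (0.18). The values used for Bid are all from the site inside Mical3, and the p53 replicate 1 value used for Mcl1 is from the summit inside Adamtsl4. Coro7 and Dnaja3 have equal scores and are both on chromosome 16, and whether they share summits was not checked. With so few distinct scores, equal values are common, and the likeness rests on 3 libraries.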

How the data were processed

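The authors deposited 1 list of summits for each ChIP library, called per library, with a score taken here, from its range, to be −log10 p or q, which no label states. The submitters' processing notes name MACS2 2.1.2, Bowtie2 2.3.4.2 and Picard 2.9.0 without roles. The sources used here give no threshold, control or read numbers, so depth is unknown and no interval is given. The notes name GRCh38 for mouse tissue, so positions were tested against RefSeq GRCm38.p6 starts: within 1 kb lay 50.2%, 48.6% and 42.6% of the summits of p53 replicate 1, p53 replicate 2 and PPAR-alpha, and 3.85 to 4.62% after moving them by 10 to 50 kb. Positions are 1-based and equal the end coordinate of each deposited 1-base record.

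Genes and summits were matched with Python 3.11.15 and pandas 2.3.3, in code tested on simulated data. All 9 members are named, and of 40 further pathway genes those with summits within 5 kb in both p53 lists are named; Bax and Bbc3 were chosen after their values were seen, as was the rule of 1 kb from a start. The gene table has no exons. Members and lists were chosen with earlier results of these data known. Alternatives covered windows, scores, dense runs, nearest genes, site distance and each p53 library.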

Additional observations from a re-analysis of the deposited data

How the results depend on the processing

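Of 66 alternative values, 38 stayed within 1.5 times the reported one. The score mattered most. At 5 or more, members with a summit numbered 2 in p53 replicate 1, 1 in p53 replicate 2, 2 in PPAR-alpha and 0 in both p53 or all 3 lists, with 6 sites and 0 shared (all genes 7.42%, 9.12%, 11.0%, 3.63% and 2.34%). At 10 or more, 1 member and 1 site remained, Bid in PPAR-alpha, with 0 in either p53 list, 0 in both or all lists and 0 shared sites (all genes 1.25%, 1.31%, 3.99%, 0.557% and 0.397%). Shared sites fell from 3 to 1 within 5 kb, within 1 kb or with the nearest gene only. Within 50 kb, 8 members had a summit in p53 replicate 2, 7 in PPAR-alpha and 6 in all 3 lists, with 37 sites and 6 shared (all genes 36.4%, 30.2% and 17.7%). Within 1 kb of a start, the counts were 1 in p53 replicate 2, 2 in PPAR-alpha and 0 in both p53 or all 3 lists (genes with starts 13.0%, 9.59%, 5.72% and 3.21%). Leaving out 1 p53 library gave 12 to 15 sites and 1 to 2 shared sites, the lower without replicate 1. In the p53 library left, 5 members had a summit without replicate 1 and 7 without replicate 2 (all genes 25.7% and 20.8%). With a PPAR-alpha summit as well, the counts were 3 and 4, and the share of all genes for such a pair of lists was not counted. Leaving out dense runs could not change any value, since no member summit lay in one, and those values count among the 38. The member counts with 1 p53 library left out are also among the 38. They ask less than the reported counts, since 1 p53 list then stands for both. The causes were not tested. No paired analysis was possible because PPAR-alpha has a single library and no result comes from a fitted test.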

Other observations

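Between 20 and 50 kb from the members, several summits marked the starts of neighbouring genes. Upstream of Bcl2, both p53 libraries had a summit at 106759859 (8.81) and 106759869 (4.33), 117 and 127 bp before the start of Kdsr, a sphingolipid synthesis gene, and PPAR-alpha had one 494 bp after it (4.70). The p53 replicate 1 score was the highest of that library within 50 kb of any member. Upstream of Bak1, p53 summits of 7.07 and 1.83 lay 266 bp before and 142 bp after the start of Itpr3, the gene of a calcium channel of the endoplasmic reticulum. On the other side, p53 replicate 2 (2.97) and PPAR-alpha (3.58) lay 64 bp apart before the start of Zbtb9. Beyond Bad, p53 summits of 2.18 and 5.88 lay 217 bp after and 465 bp before the start of Vegfb, a vascular growth factor gene.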
